A study of Mus musculus with 22 samples.

Results

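The CREB1 sites of mouse collecting duct cells treated with dDAVP were set against those of cells treated with vehicle. Every peak of the 2 CREB1 lists was taken, 785 from vehicle and 406 from dDAVP, which made 1191 of the 3801 peaks listed for the series. A peak was called shared when it overlapped a peak of the other CREB1 list by at least 1 bp, and its width was the distance between its ends on the mm10 build. The cells were mpkCCD clone 11, a single clone of an immortalized mouse cortical collecting duct line, kept in serum- and hormone-free medium before treatment. Chromatin was fixed after 30 min with 0.1 nM dDAVP, a vasopressin analog selective for the V2 receptor, or after 30 min with vehicle (0 nM). Each treatment had 4 immunoprecipitated samples made with an anti-CREB1 antibody, and 8 input libraries were named for the CREB1 samples, of which 2 were also named for C/EBP beta samples. The peak list of each treatment was a single list of positions for all 4 samples, with no height, score or read count. The spread between cultures and the sequencing depth behind a peak could therefore not be measured, no test of the treatment was possible, and a site outside a list may still have been bound by CREB1.

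Vasopressin acts on principal cells of the collecting duct through the V2 receptor, which raises cyclic AMP and activates protein kinase A, and this moves the water channel aquaporin-2 to the apical membrane and raises transcription of its gene. CREB1 is a leucine zipper factor that binds DNA as a dimer and is a substrate of protein kinase A. It binds the cyclic AMP response element (CRE), a palindrome made of 2 inverted copies of a shorter core, and many CREs lie close upstream of gene starts. In many cell types CREB1 stays on its sites without stimulation, and phosphorylation recruits coactivators to it.

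The promoter sequences below come from promoters that overlapped a peak, and some of their bases, marked ones included, lay outside the peak. They were taken from the RefSeq promoter table (build GRCm38.p6), are 100 bases long, run 5′ to 3′ along the strand of the gene and end upstream of its start. Capitals mark the full CRE, TGACGTCA, and the CRE core, TGACG on either strand. The stretches of 4 promoters with a peak in both lists come first. Fos, the immediate early gene of the AP-1 factor, was read at chr12:85473745-85473844, plus strand. Pcna, the sliding clamp of DNA replication, was read at chr2:132253203-132253302, minus strand. H4c1, a histone H4 gene, was read at chr13:23761263-23761362, minus strand, and Nup133, a scaffold protein of the nuclear pore, at chr8:123949308-123949407, minus strand.
Fos: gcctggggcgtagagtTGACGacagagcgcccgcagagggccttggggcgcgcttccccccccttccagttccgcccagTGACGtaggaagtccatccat
Pcna: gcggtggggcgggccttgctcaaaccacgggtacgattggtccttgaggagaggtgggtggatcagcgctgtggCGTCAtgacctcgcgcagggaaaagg
H4c1: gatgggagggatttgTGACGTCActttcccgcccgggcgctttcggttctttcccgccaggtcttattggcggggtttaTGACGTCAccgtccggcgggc
Nup133: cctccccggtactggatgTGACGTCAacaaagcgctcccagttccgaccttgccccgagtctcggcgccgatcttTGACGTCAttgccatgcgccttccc

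The next 5 promoters had a peak in the vehicle list alone. Junb, an AP-1 subunit, was read at chr8:84978803-84978902, minus strand. Hspa5, the chaperone BiP of the endoplasmic reticulum, was read at chr2:34771886-34771985, plus strand. Creb1, the gene of the factor itself, was read at chr1:64532704-64532803, plus strand. Braf, a kinase of the MAP kinase pathway, was read at chr6:39725490-39725589, minus strand, and Ndufb2, a subunit of respiratory complex I, at chr6:39592462-39592561, plus strand. The H4c1, Nup133, Braf and Ndufb2 stretches were chosen after their numbers of CREs were seen.
Junb: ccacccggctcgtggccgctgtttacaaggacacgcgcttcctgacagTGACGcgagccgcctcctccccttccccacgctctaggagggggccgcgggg
Hspa5: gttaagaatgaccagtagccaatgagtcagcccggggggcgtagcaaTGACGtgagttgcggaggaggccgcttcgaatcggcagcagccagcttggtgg
Creb1: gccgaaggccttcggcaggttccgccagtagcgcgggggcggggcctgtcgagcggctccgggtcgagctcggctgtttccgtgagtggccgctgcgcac
Braf: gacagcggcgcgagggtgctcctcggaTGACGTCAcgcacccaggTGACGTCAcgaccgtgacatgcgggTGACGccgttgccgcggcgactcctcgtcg
Ndufb2: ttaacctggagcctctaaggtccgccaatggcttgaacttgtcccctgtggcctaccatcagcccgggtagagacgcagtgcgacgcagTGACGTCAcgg

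The last 4 promoters had a peak in the dDAVP list alone. Ppp1r15a, which encodes the GADD34 subunit that directs a phosphatase to the translation factor eIF2α, was read at chr7:45526271-45526370, minus strand. Txndc11, a thioredoxin-domain protein, was read at chr16:11134557-11134656, minus strand. Pom121, a membrane protein of the nuclear pore, was read at chr5:135394560-135394659, minus strand, and Tmem167b, a small membrane protein, at chr3:108562467-108562566, minus strand.
Ppp1r15a: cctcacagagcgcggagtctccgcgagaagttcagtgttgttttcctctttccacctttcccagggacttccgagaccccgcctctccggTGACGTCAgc
Txndc11: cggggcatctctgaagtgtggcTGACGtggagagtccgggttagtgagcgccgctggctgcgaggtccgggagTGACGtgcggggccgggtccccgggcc
Pom121: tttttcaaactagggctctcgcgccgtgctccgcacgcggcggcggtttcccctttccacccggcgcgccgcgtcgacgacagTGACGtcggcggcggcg
Tmem167b: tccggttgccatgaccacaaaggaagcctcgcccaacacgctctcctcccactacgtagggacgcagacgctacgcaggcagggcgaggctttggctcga

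Full CREs were found in all 3 classes of promoter. H4c1, Nup133 and Braf each carried 2 in these stretches, and Ppp1r15a and Ndufb2 each carried 1. The Fos and Txndc11 stretches each held 2 cores outside a full CRE. Junb, Hspa5, Pcna and Pom121 each showed 1 core in the stretch. The windows of Creb1 and Tmem167b held neither the full CRE nor the core.

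Which CREB1 sites were called under both treatments, and how their positions compared, was asked first. Of the 406 dDAVP peaks, 398 met a vehicle peak (98.0%, 95% Wilson interval 96.2 to 99.0). In the other direction 397 of 785 vehicle peaks overlapped a dDAVP peak (50.6%, 47.1 to 54.1), and 388 did not. These intervals treat peaks as independent and cover counting error only. When the vehicle list was reduced to its 406 widest peaks, so that both lists had the same length, 322 dDAVP peaks (79.3%) and 321 vehicle peaks (79.1%) overlapped.

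Within the 398 overlapping pairs the dDAVP peak was nearly always the narrower of the pair and sat inside the vehicle peak. It was narrower in 392 pairs, wider in 5 and equal in 1, and it lay wholly inside the vehicle interval in 349 pairs (87.7%). The median width was 343.5 bp under vehicle and 252 bp under dDAVP, and the median ratio of dDAVP to vehicle width was 0.749, with quartiles of 0.665 and 0.816. The dDAVP peak was drawn in from both ends by similar amounts, a median of 44 bp at the left and 45 bp at the right. The centres moved little: the median shift was 15 bp, and 377 centres (94.7%) lay within 50 bp of each other.

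The exceptions at gene starts were few. The highest width ratios were those of Siva1, an apoptosis regulator, at 209 bp under vehicle and 239 bp under dDAVP, and Diaph3, an actin-nucleating formin, at 234 and 251 bp. Irf2bp2, a transcriptional corepressor, measured 210 and 225 bp, Snapc1, a subunit of the complex that drives small nuclear RNA genes, 261 and 273 bp, and the helicase gene Ddx27 325 bp in both lists. Ctu2, an enzyme that thiolates tRNA, measured 350 and 347 bp. At the other end, Ifrd1 went from 450 bp under vehicle to 32 bp under dDAVP. Tyw1, which makes the modified base wybutosine in tRNA, went from 311 to 75 bp. At Trp53inp2, an autophagy regulator, the vehicle peak of 548 bp overlapped dDAVP peaks of 259 and 179 bp. They were centred 17 and 370 bp from the start, with width ratios of 0.473 and 0.327. Map9, Pja2 and Sec23b, a subunit of the COPII coat, had ratios of 0.385, 0.391 and 0.399. The Trp53inp2 vehicle peak was the only one to overlap more than 1 dDAVP peak. The largest shifts of centre were 314.5 bp to the narrower of these, 192.5 bp at Csnk1g2, 141 bp at Stk11 and 120 bp at Trmt10a. The shift to the wider Trp53inp2 peak was 72.5 bp. Csnk1g2, a casein kinase gene, also had the widest vehicle peak, 827 bp, against 374 bp under dDAVP.

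**Figure D1:**
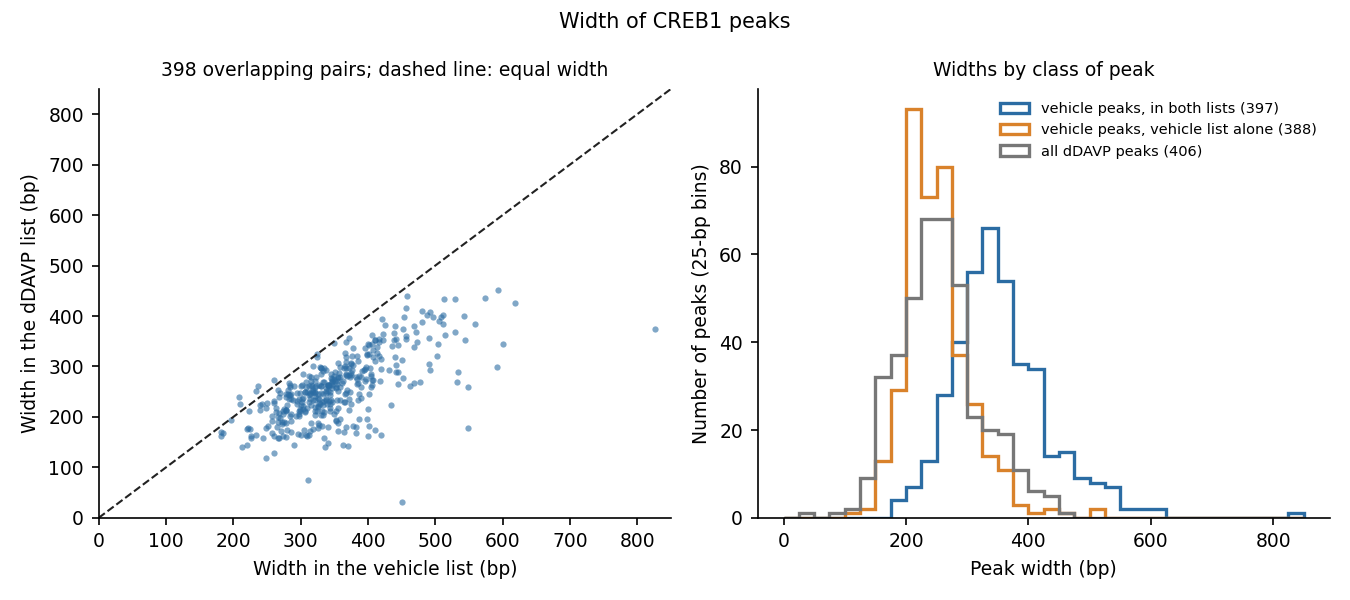
Left, width of each overlapping CREB1 pair in the vehicle list (x axis, bp) and the dDAVP list (y axis, bp), with equal width as a dashed line. Right, numbers of peaks by width in 25-bp bins for vehicle peaks in both lists, vehicle peaks in the vehicle list alone and all dDAVP peaks. Nearly all points lie below the line (392 of 398), and the vehicle peaks without a dDAVP partner are the narrower ones, with a median of 244 bp against 343 bp.

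The vehicle peaks that had a dDAVP partner were wider than those that had none, with median widths of 343 bp (range 182 to 827) and 244 bp (104 to 511). From the narrowest to the widest quartile of the vehicle list, the share with a partner was 9.14%, 31.6%, 71.4% and 90.3%. The overlap rule depends on width, so no test was made of width. The 388 vehicle peaks without a partner lay a median of 904100 bp from the nearest dDAVP peak, 4 of them within 1000 bp. How much width itself added to overlap was not tested.

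The 8 peaks called under dDAVP alone were short, and 7 of them lay within 1000 bp of a gene start. Their median width was 172 bp (100 to 218). At Ppp1r15a the peak covered chr7:45526205-45526379, 175 bp wide, with its centre 24 bp from the start, and the start of Plekha4 lay on the opposite strand. The nearest vehicle peak was 191460 bp away. Txndc11 had a peak of 100 bp, chr16:11134608-11134707, and Pom121 one of 190 bp, chr5:135394502-135394691, centred 50.5 bp from its start. Tmem167b had a peak of 174 bp, chr3:108562377-108562550, centred 2.5 bp from its start, without a core in its window. Pak1ip1, which acts in ribosome assembly, had a peak of 218 bp at chr13:41001119-41001336. The peak of 139 bp at chr5:31698440-31698578 lay 459 bp from the start of Babam2, a subunit of a BRCA1 complex, opposite Rbks, the ribokinase. The peak of 170 bp at chr5:114443695-114443864 was centred 247.5 bp downstream of the start of Mmab, a cobalamin enzyme. The start of Mvk, the mevalonate kinase, lay on the opposite strand, and a vehicle peak lay only 128 bp from the dDAVP peak. The last, 170 bp at chr6:47739950-47740119, lay 1708.5 bp from the gene model Gm40363 and was the only 1 of the 8 to overlap a C/EBP beta peak.

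Where the peaks lay relative to gene starts was compared next, and most of both classes sat just upstream of a start. Of the vehicle peaks on assembled chromosomes, 734 of 783 (93.7%) had their centre within 1000 bp of a start, as did 382 of 404 dDAVP peaks (94.6%). The share was 94.7% (374 of 395) for vehicle peaks with a dDAVP partner and 92.8% (360 of 388) for those without, a difference of 1.90 percentage points that did not pass the test (Fisher's exact test, two-sided, adjusted p = 0.331 over the 5 features compared). At a closer distance the classes separated: 307 of 395 shared peaks (77.7%, 73.4 to 81.6) and 252 of 388 vehicle-only peaks (65.0%, 60.1 to 69.5) lay within 100 bp of a start (Fisher's exact test, two-sided, adjusted p = 0.000509). That distance was chosen after the data were seen, and the test treats peaks as units and describes these lists, not cultures. Among peaks within 1000 bp of a start with a known strand, 221 of 323 shared peaks (68.4%) and 228 of 310 vehicle-only peaks (73.5%) were centred upstream, with median positions of -17.5 and -39.75 bp.

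**Figure D2:**
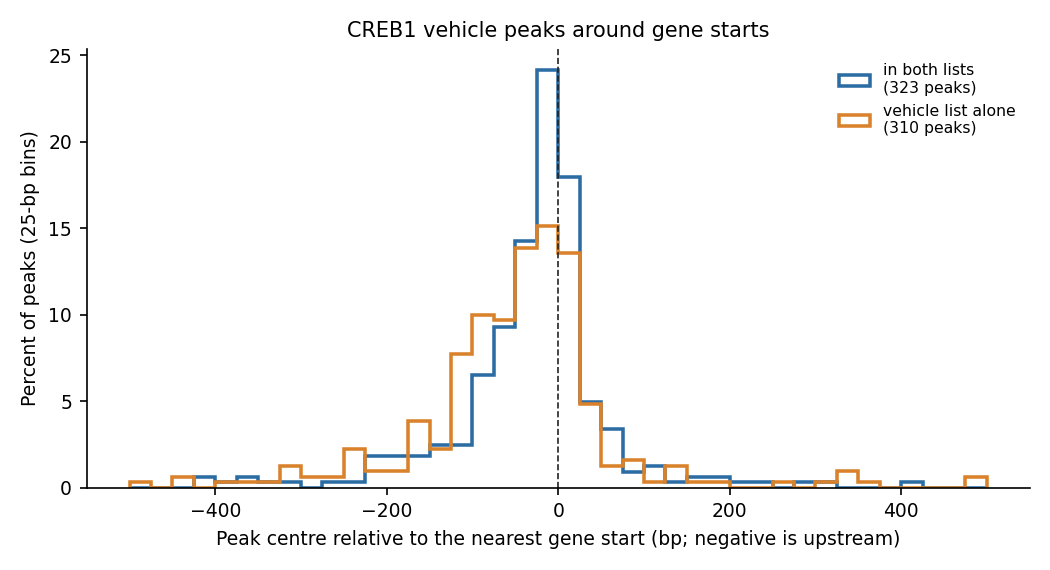
Position of the vehicle peak centre relative to the nearest gene start (x axis, bp, negative upstream) as percent of peaks in 25-bp bins (y axis), for peaks in both lists (323) and in the vehicle list alone (310). Both classes pile up just upstream of the start, with median positions of -17.5 and -39.75 bp.

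Starts of 2 genes on opposite strands within 1000 bp of the peak centre were found at 69 of 395 shared peaks (17.5%) and 57 of 388 vehicle-only peaks (14.7%; Fisher's exact test, two-sided, adjusted p = 0.331). The widest shared peaks of this kind included those at Trmt10a, a tRNA methyltransferase, with Mttp, the lipid transfer protein, and at the nuclear basket gene Tpr with Odr4. Another lay at Brca1, a DNA repair gene, with Nbr1, an autophagy receptor. Those in the vehicle list alone included Ubxn6 with Hdgfl2, Prkcsh, a glucosidase subunit, with Ccdc151, and Gtf2h5, a TFIIH subunit, with Serac1. A peak at such a pair cannot be given to 1 of the 2 genes.

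The CRE content of the promoters was compared in the 605 vehicle peaks that overlapped a RefSeq promoter window, which runs from 250 bases before to 50 bases after a start and is 300 bases long. The CRE core was present in most promoters under a peak and in a minority of promoters at large. TGACG on either strand was found in 86.0% of windows under vehicle peaks and 89.4% of the 311 windows under dDAVP peaks, against 23.6% of all 21262 protein-coding windows. The full CRE, TGACGTCA, which holds the core on both strands, was found in 25.1% and 28.3%, against 2.23% of all windows. The share was higher among the vehicle peaks with a dDAVP partner than among those without, but neither difference passed the test. The full CRE was in 87 of 315 shared promoters (27.6%, 23.0 to 32.8) and 65 of 290 vehicle-only promoters (22.4%, 18.0 to 27.6; Fisher's exact test, two-sided, adjusted p = 0.266). The core was in 279 of 315 (88.6%, 84.6 to 91.6) and 241 of 290 (83.1%, 78.4 to 87.0; Fisher's exact test, two-sided, adjusted p = 0.261).

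The classes separated in the number of cores per promoter. Counting a full CRE as 1 position, 50 of 315 shared promoters (15.9%, 12.3 to 20.3) and 14 of 290 vehicle-only promoters (4.83%, 2.90 to 7.94) held 3 or more core positions, against 0.837% of all windows (Fisher's exact test, two-sided, odds ratio 3.72, adjusted p = 4.32e-05). With 2 or more positions the shares were 42.5% and 32.8% (Fisher's exact test, two-sided, adjusted p = 0.0748). These numbers of positions were chosen after the data were seen. Read the other way, 36 of 85 vehicle peaks over a window with no core (42.4%) had a dDAVP partner, as did 145 of 291 with 1 position (49.8%), 84 of 165 with 2 (50.9%) and 50 of 64 with 3 or more (78.1%, 66.6 to 86.5). Width moved with this number: the median vehicle width was 368.5 bp with 3 or more positions and 286 bp with fewer. Among peaks of at least the median width of the vehicle list, 43 of 46 with 3 or more positions (93.5%, 82.5 to 97.8) and 211 of 264 with fewer (79.9%, 74.7 to 84.3) had a partner. Among narrower peaks the numbers were 7 of 18 (38.9%, 20.3 to 61.4) and 54 of 277 (19.5%, 15.3 to 24.6). Promoters of this kind, named after their values were seen, included those of Rrp1, which acts in ribosome assembly, Mrpl2, a mitochondrial ribosomal protein, Tinf2, a telomere protein, Slc25a3, the mitochondrial phosphate carrier, Lias, the lipoic acid synthase, and Mfn2, a fusion protein of the outer mitochondrial membrane. Each of these 6 held 4 positions and had a peak in both lists. Strap, with 5 positions, had a peak of 260 bp in the vehicle list alone.

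**Figure D3:**
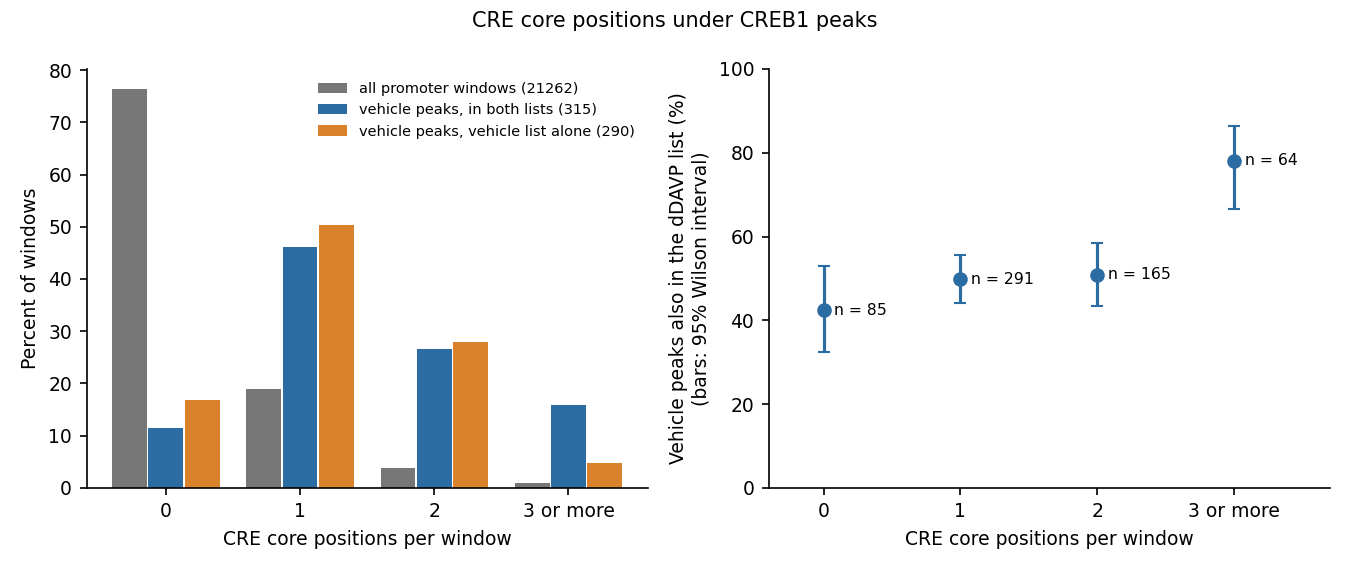
Left, percent of promoter windows (y axis) by number of CRE core positions (x axis), for all 21262 windows, 315 under shared vehicle peaks and 290 under vehicle-only peaks. Right, percent of vehicle peaks with a dDAVP partner by number of positions, with 95% Wilson intervals, from 42.4% with none to 78.1% with 3 or more.

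The CRE core lay at the middle of the peak. The nearest one was a median of 16.5 bp from the centre of shared vehicle peaks and 21 bp from that of vehicle-only peaks, and a median of 16 bp from the centre of dDAVP peaks. It lay within 50 bp in 238 of 279 shared promoters (85.3%) and 195 of 241 vehicle-only promoters (80.9%). In 20-bp bins the density at the centre of shared peaks was 22.3 cores per kb, a full CRE counting on both strands, and it was 1.07 per kb over all promoter windows. In vehicle-only peaks the density was 13.5 per kb in the central bin and 19.2 per kb in the bin centred 20 bp away, on the side of the higher coordinate.

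**Figure D4:**
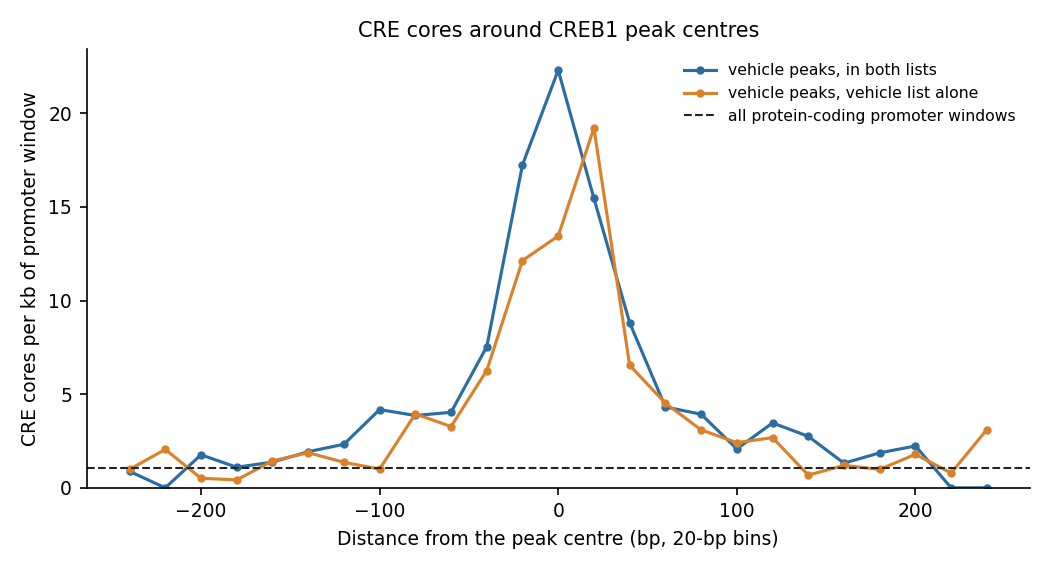
CRE cores per kb of promoter window (y axis) by distance from the centre of the vehicle peak (x axis, bp, 20-bp bins), for peaks in both lists and in the vehicle list alone, with the density over all promoter windows (1.07 per kb) as a dashed line. The density reaches 22.3 per kb in the central bin of shared peaks.

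The bases after TGACG were read at every core on either strand, a full CRE giving 2. Position 6, counted from the T of TGACG as 1, was T in 58.7% of 567 cores in shared promoters, 57.0% of 416 in vehicle-only promoters and 36.7% of 6689 in all windows. Position 7 was C in 52.7%, 51.9% and 38.8%, and position 8 was A in 57.3%, 51.7% and 34.5%. Every full CRE puts T, C and A at positions 6, 7 and 8 on both strands. It was in 27.6% of shared promoters, 22.4% of vehicle-only promoters and 2.23% of all windows. Its part in these shares was not separated, and the shares were not tested. As shares of windows, 8-letter forms differed in how much more frequent they were under peaks, where the core itself was more frequent. TGACGTAA was in 6.12% of windows under vehicle peaks and 0.532% of all windows, TGACGTAG in 5.79% and 0.546%, and TGACGCCA in 6.61% and 0.997%, while TGACGCCT was in 0.496% and 0.517%. The Fos stretch printed above holds TGACGTAG and TGACGACA. TGACGACA was in 24 shared promoters (7.62%) and 5 vehicle-only promoters (1.72%), against 0.470% of all windows, and this contrast, picked after the values were seen, was not tested.

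Other promoter motifs were counted in the same windows on both strands. The ETS motif CCGGAAG was in 29.6% of windows under vehicle peaks and 11.6% of all, with 30.8% in shared and 28.3% in vehicle-only promoters. The GC box GGGCGG, read by Sp factors, was in 65.3% against 46.2%. The CCAAT box, read by NF-Y, was in 48.8% against 38.2%, with 44.1% in shared and 53.8% in vehicle-only promoters. The TATA box TATAAA was rarer under the peaks, 6.94% against 12.6%. The AP-1 motif TGANTCA was in 4.96% against 6.99% and the C/EBP motif TTGCNNAA in 8.26% against 10.2%. Windows under vehicle peaks were richer in G and C, with a median of 60.7% against 56.3% of bases. They also held a median of 25 CpG dinucleotides against 13, and the core, the GC box and the ETS motif each contain CpG. The part of base composition in these shares was not tested.

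Starting from the promoters, 183 of the 475 windows with a full CRE (38.5%) lay under a vehicle peak and 111 (23.4%) under a dDAVP peak. Of the 13 windows with at least 2 full CREs, 9 lay under a vehicle peak and 8 under a dDAVP peak. With cores only, 483 of 4545 windows (10.6%) and 251 (5.52%) were under a peak. Among 144 windows with 3 or more cores and no full CRE the numbers were 61 (42.4%) and 47 (32.6%). With neither motif 113 of 16242 (0.696%) and 40 (0.246%) were. The shared promoters with the most full CREs, 2 each, were H4c1, Larp7, which binds 7SK RNA, Nup133, Tmem198, Lekr1 and Ralgapa1. Braf had 2 and a peak in the vehicle list alone.

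Overlap with C/EBP beta, a leucine zipper factor assayed in the same cells, was found at 19 of 397 shared vehicle peaks (4.79%) and 30 of 388 vehicle-only peaks (7.73%), a difference that did not pass the test (Fisher's exact test, two-sided, adjusted p = 0.261). The C/EBP beta lists came from 2 samples per treatment, against 4 for CREB1. All 49 of these CREB1 peaks overlapped the C/EBP beta list of dDAVP cells. Of them, 5 also overlapped that of vehicle cells, whose list was much shorter (209 against 2401 peaks). The widest shared ones were at Csnk1g2, Oaz1, which encodes an inhibitor of polyamine synthesis, Ddx49, Ssu72, Dcaf11 and Rps6kb2. The widest in the vehicle list alone were at Per1, a clock repressor, and Smarcad1, a chromatin remodeler. Of the 49 vehicle peaks beyond 1000 bp from a start, 10 overlapped C/EBP beta (20.4%, 11.5 to 33.6), against 39 of 734 closer ones (5.31%, 3.91 to 7.18). On chromosome 6, 5 of these distal peaks, with widths of 177 to 302 bp, lay between 47672293 and 47763446, and none had a dDAVP partner. Around them, 14 C/EBP beta peaks of dDAVP cells fell in the wider region from 47654946 to 47772154. A single dDAVP peak, the one of 170 bp named above, lay in that region without meeting any of the 5. Without the cluster 5 of 44 distal vehicle peaks (11.4%) overlapped C/EBP beta, and the shares overlapping C/EBP beta were 4.79% of shared and 6.53% of vehicle-only peaks.

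Which genes carried a CREB1 peak was then read gene by gene, for peaks centred within 1000 bp of a start. Of 21883 protein-coding genes, 893 (4.08%) had a vehicle peak and 479 (2.19%) a dDAVP peak. Both lists held a peak at 471 genes (2.15%), the vehicle list alone at 422 (1.93%) and the dDAVP list alone at 8 (0.0366%). The gene lists below are counted beside these shares without a test. They were drawn up by symbol or symbol pattern, so a list can hold genes outside its name. A peak near the starts of several genes was counted for each of them, also across lists, as at Trmt2a and Ranbp1 and at Fau and Mrpl49.

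Among 52 immediate early and classical CREB target genes, 9 had a vehicle peak (17.3%) and 5 a dDAVP peak (9.62%). Fos had a vehicle peak of 373 bp centred 116 bp from its start and a dDAVP peak of 250 bp. Pcna had peaks of 383 and 168 bp, centred 128 and 134.5 bp from its start. They lay closer, at 30 and 23.5 bp, to the start of Cds2 on the opposite strand. Btg1, an antiproliferative gene, had peaks of 314 and 236 bp. The Ccna2 (cyclin A2) peaks, 322 and 259 bp, lay 981.5 and 976 bp from the nearer end of the gene, near the limit of distance. Ccna2 had no stranded start, so this end may not be its start. Called under vehicle alone were Junb (220 bp wide, 80.5 bp from the start), Mafk, a small Maf factor (324 bp, 49.5 bp), Hspa5 (338 bp, 185.5 bp) and Per1 (442 bp, 101.5 bp). So was Ier2 (265 bp wide, 35 bp from the nearer end of the gene, without a stranded start). The Per1 peak was wider than the median shared peak, while that of Junb was among the narrow ones. Ppp1r15a was the only 1 of the 52 in the dDAVP list alone. Nr4a1 and Sik1, targets that cyclic AMP induces in many cells, had no peak near their starts, and their nearest vehicle peaks were 701843 and 180543.5 bp away.

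The CREB and ATF family showed 3 vehicle peaks and no dDAVP peak among 23 genes. They were at Atf4, the factor of the integrated stress response (395 bp wide, 22 bp from the start), Creb1 itself (269 bp, 89 bp) and Creb3l2 (273 bp, 55 bp). Among 44 genes of vasopressin, cyclic AMP and protein kinase A signalling, 2 had a vehicle peak and none a dDAVP peak. The vehicle share, 4.55%, was near that of all genes. The 2 genes were Prkaca, the catalytic subunit of protein kinase A (222 bp, 112.5 bp), and Ppp2ca, the catalytic subunit of phosphatase 2A (225 bp, 44 bp). None of 40 genes that mark the collecting duct had a peak in either list. In this list and those of 23 and 44 genes, the shares of all genes, 4.08% under vehicle and 2.19% under dDAVP, would give few genes. A count of none was therefore not read as a result. The nearest vehicle peak to Aqp2, the vasopressin-regulated water channel, was 146455 bp away. Per1 was the only 1 of 22 circadian clock genes with a peak (4.55%), again near the share of all genes.

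Of 32 genes listed under protein folding and stress in the endoplasmic reticulum, not all of which need act there, 9 had a vehicle peak (28.1%) and 3 a dDAVP peak (9.38%). Dnajb9 (290 bp under vehicle and 144 bp under dDAVP) and Dnajb11 (407 and 273 bp), both BiP cochaperones, were in both lists. Hspa5, Hyou1, another chaperone, Eif2ak3, the stress sensor PERK, Sel1l and Derl2, parts of the degradation machinery, Selenok and Dnajb1 were in the vehicle list alone. Ppp1r15a, which belongs to this list too, was in the dDAVP list alone.

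Among 53 nuclear pore and transport genes, 10 had a vehicle peak (18.9%) and 9 a dDAVP peak (17.0%). The shared ones included Nup214 (410 and 352 bp), Nupl2 (280 and 223 bp), Tpr (544 and 353 bp), Nup155 (182 and 170 bp) and Ranbp2 (458 and 439 bp), and only Ipo11, an importin, was called under vehicle alone. Among 49 tRNA modification enzymes the numbers were 13 (26.5%) and 10 (20.4%). Shared peaks lay at the methyltransferase genes Trmt61a (295 and 248 bp), Trmt44 (319 and 301 bp) and Trmt5 (384 and 265 bp), while Nsun6, Trmt12 and Trmt112 were in the vehicle list alone. The Trmt5 peaks also lay at the start of Slc38a6 on the opposite strand, and were counted again among the solute carriers. Of 53 DEAD and DEAH box helicases, 13 had a vehicle peak (24.5%) and 7 a dDAVP peak (13.2%), among them Ddx51 (413 and 326 bp) and Ddx10 (302 and 263 bp). Ddx50, Ddx17 and Dhx38 were called under vehicle alone. Of 69 splicing factors, 14 (20.3%) and 7 (10.1%) had peaks. Snrpc, a U1 protein (373 and 279 bp), and Srsf11 (353 and 257 bp) were shared, and Sf3b5, Srsf5 and Srsf3 were in the vehicle list alone.

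In the machinery of transcription and translation, 17 of 105 RNA polymerase, Mediator and general transcription factor genes (16.2%) had a vehicle peak and 9 (8.57%) a dDAVP peak. Med6 (338 and 293 bp), Med9 (270 and 248 bp) and Polr2k (257 and 201 bp) were shared. Taf7, Tbp, the TATA-binding protein, and Gtf2h5 were in the vehicle list alone. Among 86 cytosolic ribosomal proteins, 15 had a vehicle peak and 9 a dDAVP peak, with Rpl21 (356 and 217 bp), Rpl24 (352 and 259 bp) and Rpl34 (322 and 271 bp) in both. Rps9, Rpl13 and Rpl3 were in the vehicle list alone. The 77 mitochondrial ribosomal proteins had 6 and 4, and the 35 tRNA synthetases 3 and 2. The 71 genes matched by symbol as translation initiation and elongation factors had 6 and 3. Eif2ak3, the stress sensor PERK, was among the 6, and Eef1akmt3 among the 6 and the 3. For the respiratory chain and ATP synthase, 9 of 83 and 4 of 83 genes had peaks, with Cox8a and Ndufa10 shared and Ndufb6 and Ndufb2 in the vehicle list alone. Mitochondrial import had 3 and 2 of 25.

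Of 91 DNA replication and repair genes, 11 (12.1%) had a vehicle peak and 7 (7.69%) a dDAVP peak. The shared ones included Rad51c (304 and 237 bp), Rfc4 (385 and 233 bp) and Mcm5, a subunit of the replicative helicase (300 and 164 bp). Rfc1 and Orc5 were in the vehicle list alone. Of 74 genes matched by symbol as cyclins, cyclin-dependent kinases and anaphase complex, 9 and 6 had peaks, with Anapc10 (421 and 395 bp) and Anapc2 (344 and 225 bp) in both. The pattern also took in Cdc45, in the vehicle list alone, and Cdc5l, in both. Of 64 clustered histone genes 4 (6.25%) and 2 (3.12%) had peaks. H4c1 and H3c1 shared 1 peak of 593 bp under vehicle and 452 bp under dDAVP.

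Rab GTPases and vesicle coat genes, which carry out membrane traffic, had 19 vehicle peaks (10.5%) and 7 dDAVP peaks (3.87%) among 181 genes. Rab5a, of early endosomes (369 and 253 bp), and Sec23b (363 and 145 bp) were in both, while Rab11a, of recycling endosomes, Rab13 and the sorting nexin gene Snx5 were in the vehicle list alone. The proteasome had 5 (10.4%) and 2 (4.17%) of 48 genes. Ubiquitin-conjugating enzymes and F-box proteins had 5 (4.35%) and 4 (3.48%) of 115, the vehicle share being near that of all genes. In 3 large families, solute carriers had 8 (2.20%) and 5 of 364, zinc finger genes named Zfp 14 (3.53%) and 4 (1.01%) of 397, and the 1106 olfactory receptor genes none in either list.

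**Figure D5:**
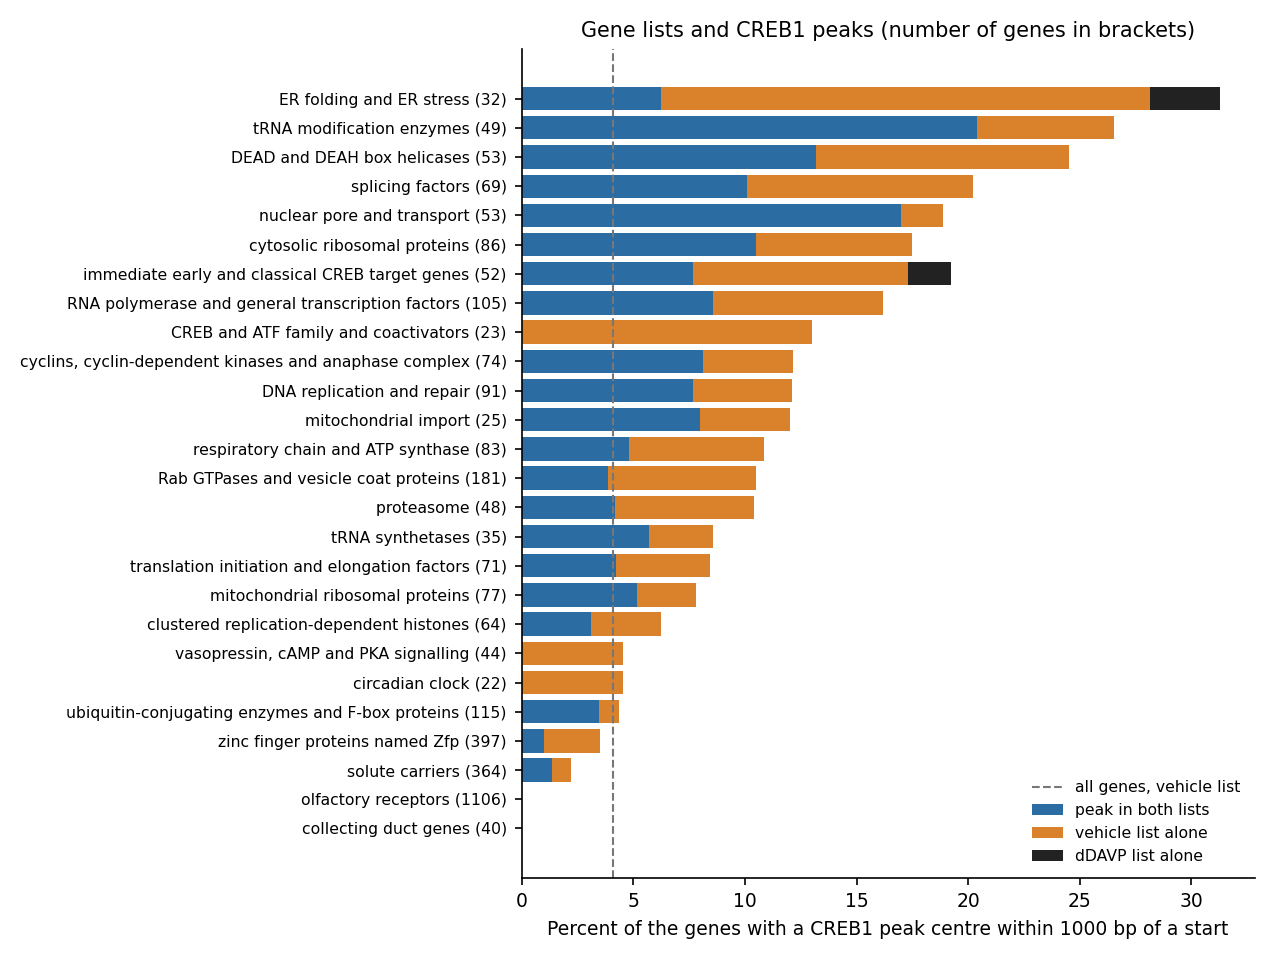
Percent of the genes of each list (x axis, number of genes in brackets) with a CREB1 peak centred within 1000 bp of a start, split into both lists, vehicle list alone and dDAVP list alone. The dashed line is the share of all protein-coding genes with a vehicle peak (4.08%), and the nuclear pore list is the one of those above 18% with the smallest vehicle-only piece, 1 gene.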

How the data were processed

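CREB1 chromatin immunoprecipitation of mpkCCD cells gave 1 deposited peak list per treatment for 4 samples each. The files hold positions only, 0-based BED intervals on mm10 that the authors deposited without a unit beyond base pairs. The authors used BWA, SAMtools, MACS2 and bedtools, per the submitters' processing notes; versions, thresholds and how replicates were combined are not given in the sources used here. Overlaps, distances from peak centre to gene start and motif matches were computed with Python 3.11.15, numpy 2.4.6, pandas 2.3.3 and scipy 1.17.1, and figures with matplotlib 3.10.9, after the code was tested on simulated data. Starts came from RefSeq (GRCm38.p6): 17491 of 21883 genes had stranded starts in the promoter table, and for 4392 either end was used. Motifs were searched in promoter windows only. Shared and vehicle-only vehicle peaks were compared over 5 features by Fisher's exact test with Benjamini-Hochberg adjustment, threshold 0.05. Members and lists were chosen with earlier results of these data known. Named genes were those nearest to dDAVP-only peaks, with extreme width ratios (6 a side) or shifts (4), in the short gene lists, closest to a start in families (up to 6 a class), with most CREs, widest at opposite starts or C/EBP beta overlaps, and 14 fixed genes. Alternatives changed the overlap rule, the width minimum, distances and motif windows.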

Additional observations from a re-analysis of the deposited data

How the results depend on the processing

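No paired analysis was possible because each treatment has 1 peak list for its 4 samples, and for the same reason no sample could be left out. Of 58 recalculations, 52 kept direction and side of the threshold or stayed within the spread of the value. The share of dDAVP peaks with a vehicle partner fell to 91.9% when the overlap had to cover 50% of both peaks, and to 79.3% against the 406 widest vehicle peaks, of which 79.1% had a dDAVP partner. Comparing shared with vehicle-only peaks, the difference in the CRE core rose to 9.37 percentage points when only bases inside the peak were searched (Fisher's exact test, adjusted p = 0.0125), a search that gave shared peaks more bases, since their median width was 343 bp against 244 bp, and, chosen after seeing the data, to 11.1 points for at least 3 positions (Fisher's exact test, adjusted p = 4.32e-05). The difference at gene starts rose to 12.8 points at 100 bp, also chosen after seeing the data (Fisher's exact test, adjusted p = 0.000509). The cause of the other changes was not tested. The median width ratio ranged from 0.744 to 0.761 and the median centre shift from 14 to 15 bp. Read depth is unknown, so it could not be said at what depth a site would have been called.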

Other observations

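No CREB1 peak of either list lay on chromosome X or Y. C/EBP beta peaks were also few on X, 20 in dDAVP cells and 1 in vehicle cells, for 966 protein-coding genes. Chromosome 18, with 510 genes, had 51 and 2 C/EBP beta peaks. Of the promoter windows on X, 197 of 960 (20.5%) held a CRE core, against 23.6% of all windows. In the CREB1 lists, chromosome 7 had 21 vehicle peaks and 7 dDAVP peaks, and 25 of its 2030 protein-coding genes (1.23%) had a vehicle peak. Chromosome 18 had 5 and 2 CREB1 peaks, with a vehicle peak at 5 of 510 genes (0.98%), and its promoter windows were not analysed here. The gene shares were 7.94% on chromosome 19, 7.36% on chromosome 12 and 7.27% on chromosome 17. These are counts in the lists as analysed here. Each CREB1 list also held 2 peaks on unplaced contigs. Of the 49 vehicle peaks beyond 1000 bp from a protein-coding start, 21 (42.9%) had a dDAVP partner, 22 were beyond 10000 bp, and 7 lay over the promoter window of another annotated gene, among them the noncoding genes Rab10os and Snhg8. Of the 388 vehicle peaks without a dDAVP partner, 4 lay within 1000 bp of a dDAVP peak.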
